A study of Mus musculus with 6 samples.

Results

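Heat shock proteins and chaperonins are the proteins that fold, hold and refold other proteins. The genes described here were chosen by name alone: mouse protein-coding genes named *Hspa*, *Hspb*, *Hspd*, *Hspe* or *Hsph* with a number, *Hsp90*, *Dnaja*, *Dnajb* or *Dnajc* with a number, the numbered *Cct* subunits and *Tcp1*. Of the 31053 genes listed, 80 met this rule. *Cct6a*, the remaining subunit gene of the cytosolic chaperonin, is classed as other than protein-coding in the annotation used and was not analysed here.

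Chaperones work in layers. Hsp70 proteins bind short hydrophobic stretches of unfolded chains in cycles of ATP hydrolysis, J-domain proteins (the *Dnaj* genes) bring substrates to Hsp70 and stimulate its ATPase, and Hsp110 proteins help Hsp70 to release ADP. Hsp90 acts on clients that are already partly folded, and the barrel-shaped chaperonins enclose a chain while it folds: TRiC, also called CCT, in the cytosol, with actin and tubulin among its main substrates, and Hsp60 with Hsp10 in mitochondria. Neurons place particular J-domain proteins at synaptic vesicles, at clathrin coats and on endosomes.

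The data came from primary cortical neurons in 6 bulk libraries, 3 each of RPL10A-STAMP and RPL22-STAMP. The constructs join rAPOBEC1, which deaminates cytidine so that C is read as U, to one of the proteins of the large ribosomal subunit, with Rpl10a at the C terminus of the enzyme and Rpl22 at its N terminus. All cultures came from cortices of wild-type C57BL/6J embryos at embryonic day 18, plated at 600000 cells per well. They received floxuridine on day in vitro 3, which limits dividing cells, an AAV carrying a construct on day 6, and doxycycline at 1 µg per ml for 48 h before collection on day 14. A synapsin promoter, active in neurons, drives the doxycycline-dependent activator of the construct. Edits are thus meant to be placed in the infected neurons, while the RNA comes from the whole well. Both groups carried virus and doxycycline, and no library without a construct was used here. Replicates are called biological in the study's methods and technical elsewhere in its text, so p values here measure the spread between these libraries, which may be technical.

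The deposited value is EPR, the edits on a gene divided by the reads on that gene. It is a ratio per read, not an RNA level, and the reads behind each value are unknown. Genes are called edited where EPR exceeds 0, and an EPR of 0 can mean no edits or no reads. The median EPR of the 8046 genes edited in all 6 libraries was between 0.0120 and 0.0161 with RPL10A-STAMP and between 0.00907 and 0.0129 with RPL22-STAMP. Values below are therefore given as relative EPR, the EPR of a gene divided by that median in the same library, so that 1 is the median gene. All 12 neuronal markers were edited in every library (summed EPR 0.304 to 0.380 with RPL10A-STAMP and 0.272 to 0.334 with RPL22-STAMP). So were 5 to 7 of 7 astrocyte markers (summed EPR 0.244 to 0.297 with RPL10A-STAMP and 0.130 to 0.285 with RPL22-STAMP). Of the oligodendrocyte lineage 2 to 3 of 8 markers were edited, and of microglia 0 to 2 of 7. All 4 endothelial markers were at 0, as were *Mog*, *Mag*, *Mobp*, *Csf1r*, *Aif1*, *P2ry12* and *Tmem119*. Which cells held the edits on astrocyte markers, and the part of the astrocyte signal in the results, were not tested.

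Most of the chaperone genes were edited. Of the 80, 53 were edited in all 6 libraries, 14 in 1 to 5 libraries and 13 in none. In single libraries, 60, 59 and 63 were edited with RPL10A-STAMP against 57, 62 and 58 with RPL22-STAMP, so the variants overlapped (means 60.7 ± 2.08 and 59.0 ± 2.65, SD, n = 3). In bulk RNA, fewer cells of a type and less of a gene's RNA per cell cannot be told apart, and neither can fewer edited cells and fewer edits per cell. The counts in single libraries are 71.3% to 78.8% of the 80, against 31.9% to 36.1% of all listed genes. All 80 are protein-coding by the rule, against 21974 of the 31053 listed genes, so these shares are not of like genes. No chaperone gene was edited in all 3 libraries of a variant and in none of the other, and the highest EPR of any of them was 0.0714, in *Hspa1b*. The 13 genes listed at 0 throughout were *Cct6b*, *Dnajb7*, *Dnajb8*, *Dnajb13*, *Dnajc5b*, *Dnajc5g*, *Dnajc22*, *Hspa1l*, *Hspa12b*, *Hspb1*, *Hspb2*, *Hspb7* and *Hspb9*. Several of these are known from testis (*Cct6b*, *Dnajb8*, *Dnajc5b*, *Hspa1l*) or muscle (*Hspb2*, *Hspb7*).

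Among the 53 genes edited throughout, relative EPR lay mostly below that of the median gene, and the families differed. The median over the 53 genes was 0.709, 0.649 and 0.633 in the RPL10A-STAMP libraries and 0.639, 0.811 and 0.667 in the RPL22-STAMP libraries. Between 31 and 39 of the 53 were below 1 in each library, and 35 of 53 had a mean over the libraries below 1, against 46.6% of all 8046 genes. The 31 J-domain genes had library medians from 0.747 to 1.14 and the 22 other genes from 0.369 to 0.457, so the values for the J-domain genes were higher in every library. These are descriptions of genes chosen by name and carry no test.

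**Figure D1:**
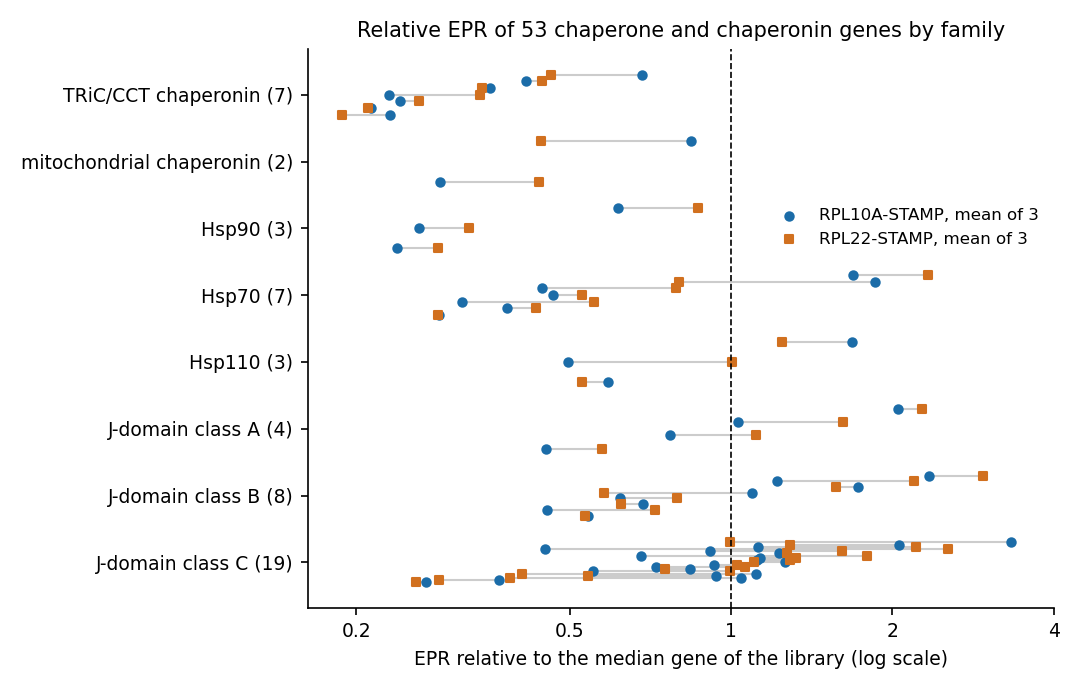
Relative EPR of the 53 genes edited in all 6 libraries, by family (number of genes in brackets), on a log scale. Each gene is a pair of points, the mean of 3 RPL10A-STAMP libraries (circle) and of 3 RPL22-STAMP libraries (square), joined by a line, and the dashed line at 1 is the median gene. All 7 TRiC/CCT and all 3 Hsp90 genes lie to its left, while the J-domain genes spread across it.

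TRiC/CCT and Hsp90 were the lowest families by the median of their genes, at 0.285 and 0.294, and Hsp90 had the lower median in 5 of the 6 libraries. All 7 TRiC/CCT subunit genes analysed had a mean relative EPR below 1, between 0.210 and 0.571, and the highest value of any subunit in any library was 0.801. *Cct8* was the highest of the 7 in 5 libraries, at 0.709, 0.533 and 0.801 with RPL10A-STAMP against 0.442, 0.413 and 0.528 with RPL22-STAMP. Its RPL10A-STAMP values were above its RPL22-STAMP values without overlap, with a log2 fold change that did not pass the test (0.23, SE 0.12, limma adjusted p = 0.260). *Tcp1*, which encodes the alpha subunit, was the highest in the remaining library. It had 0.460, 0.359 and 0.424 with RPL10A-STAMP against 0.350, 0.495 and 0.485 with RPL22-STAMP.

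The other TRiC/CCT subunits overlapped between the variants. *Cct5* was the lowest subunit in 4 libraries and *Cct4* in 2. *Cct5* had 0.237, 0.331 and 0.0717 with RPL10A-STAMP against 0.229, 0.337 and 0.0645 with RPL22-STAMP, so its libraries differed more within a variant than the variants did. *Cct4* ranged from 0.0493 to 0.331 over the 6 libraries. *Cct2* was at 0.356 ± 0.0320 with RPL10A-STAMP and 0.343 ± 0.0874 with RPL22-STAMP, *Cct3* at 0.230 ± 0.0891 and 0.340 ± 0.113, and *Cct7* at 0.242 ± 0.0811 and 0.262 ± 0.153 (SD, n = 3). The subunits are parts of 1 complex, yet their mean relative EPR spanned 0.210 to 0.571, and the libraries of neighbouring subunits in this order overlapped. None of the 7 passed the test between the variants, which 14.3% of all 8046 genes passed (median log2 fold change 0.006, against -0.012 over all 8046 genes).

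The mitochondrial chaperonin genes *Hspd1* (Hsp60) and *Hspe1* (Hsp10) lie back to back in the genome and lay on opposite sides between the variants, neither past the test. *Hspd1* had 0.312, 0.297 and 0.252 with RPL10A-STAMP against 0.460, 0.440 and 0.413 with RPL22-STAMP, without overlap (log2 fold change -0.19, SE 0.10, limma adjusted p = 0.236). *Hspe1* had 1.07, 0.725 and 0.730 with RPL10A-STAMP against 0.639, 0.141 and 0.549 with RPL22-STAMP, also without overlap (log2 fold change 0.42, SE 0.19, limma adjusted p = 0.191). With the length trend removed *Hspe1* passed (log2 fold change 0.61, limma adjusted p = 0.0456). Runs of 50 bases identical to other places in the genome cover 85.6% of the *Hspd1* transcript and 64.7% of the *Hspe1* transcript. Reads were allowed up to 10 locations, so the reads behind both ratios are uncertain.

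Of the Hsp90 genes, the constitutive cytosolic *Hsp90ab1* and the ER form *Hsp90b1* (Grp94) were low and steady. *Hsp90ab1* had 0.254, 0.284 and 0.249 with RPL10A-STAMP against 0.369, 0.302 and 0.304 with RPL22-STAMP. These did not overlap, and the difference did not pass the test (log2 fold change -0.083, SE 0.093, limma adjusted p = 0.588). *Hsp90b1* had 0.229, 0.274 and 0.211 against 0.338, 0.255 and 0.260. *Hsp90aa1*, the heat-inducible cytosolic form, was higher than both in every library, at 0.633, 0.6197 and 0.593 with RPL10A-STAMP against 0.882, 0.811 and 0.912 with RPL22-STAMP. Its variants did not overlap and the difference did not pass the test (log2 fold change -0.24, SE 0.11, limma adjusted p = 0.208). Sequence identical to other loci covers 82.8% of the *Hsp90aa1* transcript and 24.8% of that of *Hsp90ab1*.

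**Figure D2:**
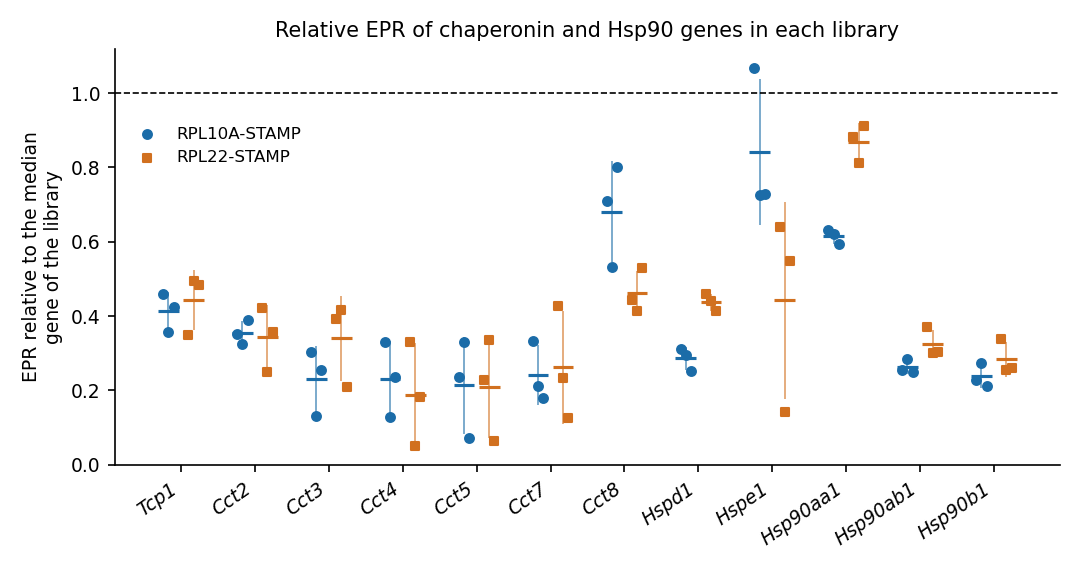
Relative EPR of the TRiC/CCT, mitochondrial chaperonin and Hsp90 genes in each of the 6 libraries. Points are libraries (circles RPL10A-STAMP, squares RPL22-STAMP), short horizontal lines are means of 3 and thin vertical lines 1 SD, and the dashed line at 1 is the median gene. *Hspe1* in 1 RPL10A-STAMP library, at 1.07, is the only point above that line.

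The Hsp70 genes spread widely in relative EPR. The constitutive members were low, with *Hspa5* (BiP, the ER Hsp70) at 0.355, 0.209 and 0.292 with RPL10A-STAMP against 0.270, 0.244 and 0.339 with RPL22-STAMP. *Hspa8*, the constitutive cytosolic Hsp70 (Hsc70), which also strips clathrin from vesicles, had 0.464, 0.348 and 0.336 against 0.518, 0.359 and 0.420. *Hspa9*, the mitochondrial Hsp70 (mortalin), had 0.461, 0.421 and 0.511 against 0.575, 0.4998 and 0.507. The groups overlapped for all 3 genes, and runs shared with other loci cover 85.3% of the *Hspa8* transcript.

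The other Hsp70 genes tested differed among themselves. *Hspa12a*, a distant member of the family, had 1.99, 1.46 and 1.62 with RPL10A-STAMP against 2.66, 1.93 and 2.40 with RPL22-STAMP, which overlapped. *Hspa2*, best known from the testis and also expressed in brain, had 0.454, 0.456 and 0.419 against 0.685, 1.05 and 0.635, without overlap (limma adjusted p = 0.139). *Hspa13*, which encodes a short Hsp70 of the microsomal fraction without the usual substrate-binding domain, passed the test and is described below. *Hspa14*, which forms the ribosome-associated complex with the J-domain protein Dnajc2 and receives chains as they leave the ribosome, was low and variable, from 0.163 to 0.425 with RPL10A-STAMP and from 0.387 to 0.848 with RPL22-STAMP. Its partner *Dnajc2* was edited in 5 libraries and was not tested in the main fit. *Dnajc21*, a J-domain protein with a role in assembly of the large ribosomal subunit, had 0.541, 0.138 and 0.130 against 0.268, 0.316 and 0.192. Of the 3 ribosome-associated genes, 2 were tested and neither passed, beside the 14.3% of all genes that did.

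The stress-inducible Hsp70 genes were seen only in part. *Hspa1a* was edited in 2 RPL10A-STAMP libraries, at an EPR of 0.0351 and 0.0385, and was listed at 0 in the other 4. *Hspa1b* was edited in 1 library of each variant, at 0.0455 with RPL10A-STAMP and 0.0714 with RPL22-STAMP. Each shares 71.1% to 75.2% of its transcript with other loci as runs of 50 identical bases. *Dnajb1*, the inducible class B J-domain partner of Hsp70, was edited in 5 libraries, at a relative EPR of 0.165, 0 and 0.138 with RPL10A-STAMP against 0.250, 0.349 and 0.475 with RPL22-STAMP. It was at 0 in 1 library and was not tested in the main fit.

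Of the 10 genes listed as heat-inducible, *Hspb1* was not edited and 6 were tested. The 6 were *Hsph1*, *Hsp90aa1*, *Dnaja1*, *Hspd1*, *Hspe1* and *Hspa8*, of which *Hspa8* is described above as constitutive. None of the 6 passed, beside the 14.3% of all genes that did. Their median log2 fold change was -0.15, against -0.012 for all genes. The nearest was *Hsph1*, an Hsp110 gene, with 0.589, 0.380 and 0.522 with RPL10A-STAMP against 1.06, 0.843 and 1.11 with RPL22-STAMP. Its variants did not overlap, and its log2 fold change was -0.48 (SE 0.13, limma adjusted p = 0.0558). The other Hsp110 genes lay on the opposite side: *Hspa4* had 0.707, 0.498 and 0.562 against 0.589, 0.534 and 0.457, which overlapped. *Hspa4l* had 1.77, 1.64 and 1.63 against 1.27, 1.19 and 1.28, without overlap (log2 fold change 0.28, SE 0.12, limma adjusted p = 0.166).

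Small heat shock proteins hold unfolded chains without ATP, and their genes gave the thinnest data. None of the 8 was edited in all 6 libraries and 4 were edited in none. *Hspb11*, which despite its name encodes a component of intraflagellar transport, was edited in all 3 RPL10A-STAMP libraries at a relative EPR of 1.13, 1.13 and 2.60 and in 1 RPL22-STAMP library at 0.258. It was at 0 in the other 2 libraries and was not tested in the main fit. In the alternative with genes edited in at least 3 libraries it passed, higher with RPL10A-STAMP. *Hspb6* was edited in 5 libraries, *Hspb8* in 3 and *Hspb3* in 1.

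J-domain genes held the highest relative EPR among the 53 chaperone genes edited in all 6 libraries. *Dnajb6*, which keeps polyglutamine proteins from aggregating, had the highest mean over the 6 libraries, with 2.26, 2.85 and 1.93 with RPL10A-STAMP against 3.08, 2.77 and 2.997 with RPL22-STAMP. The variants overlapped, and 84.8% of its transcript recurs elsewhere in the genome. *Dnaja1*, a cytosolic class A partner of Hsp70, followed *Dnajc13* in this order, with 2.35, 1.88 and 1.92 against 2.502, 2.02 and 2.28. *Dnaja2*, also cytosolic, had 0.788, 0.838 and 0.679 against 1.13, 1.19 and 1.02, and *Dnaja3*, the mitochondrial member, 0.466, 0.468 and 0.423 against 0.563, 0.492 and 0.667, both without overlap. All 4 class A genes had a negative log2 fold change (median -0.21), none past the test, beside the 14.3% of all genes that passed. *Dnaja1* and *Dnaja3* turned positive without scaling between libraries.

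Within class B, 8 of 13 genes were tested and 1 passed the comparison of the variants, which 14.3% of all genes passed. *Dnajb14*, an ER membrane protein, was high and steady, with 1.55, 1.82 and 1.82 against 1.61, 1.63 and 1.48. *Dnajb12*, its close relative, was not steady: 1 RPL10A-STAMP library had 0.275 and the others 1.68 and 1.33, and the RPL22-STAMP libraries lay from 0.419 to 0.805. The other class B genes tested, *Dnajb2*, *Dnajb4*, *Dnajb5* and *Dnajb11*, had means between 0.537 and 0.707. Class C, whose members share little beyond the J domain, had 19 of 28 tested and 4 past the same threshold (14.3% of all genes). The other 6 J-domain genes edited in part of the libraries were *Dnajc12* (4 libraries), *Dnajc24* (3), *Dnajb3*, *Dnajc4* and *Dnajc28* (2 each) and *Dnajc17* (1). Mean relative EPR in class C ran from 0.264 for *Dnajc21* to 2.16 for *Dnajc13*. *Dnajc9*, a nuclear histone co-chaperone, shows how far a single library can move a mean: its RPL22-STAMP values were 3.27, 1.54 and 0.568, against 0.713, 0.692 and 0.633 with RPL10A-STAMP, and its log2 fold change of -0.67 had an SE of 0.36 (limma adjusted p = 0.254).

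The comparison that the design gives is RPL10A-STAMP against RPL22-STAMP. It asks whether the edits per read of a gene edited in all 6 libraries differ between the constructs. The constructs differ in the ribosomal protein and in the end of the enzyme it joins, which cannot be told apart here. Across the 8046 genes, 14.3% passed limma at an adjusted p of 0.05 on log2(EPR + 0.01) after each library was scaled to its median gene, 8.51% with RPL10A-STAMP higher and 5.77% with RPL22-STAMP higher. Of the 53 chaperone genes, 6 passed, which is 11.3% and near the share of all genes: 2 were higher with RPL10A-STAMP and 4 with RPL22-STAMP. Their median log2 fold change (RPL10A-STAMP over RPL22-STAMP) was -0.063, against -0.012 for all genes. The relative EPR of 20 chaperone genes did not overlap between the variants (37.7%, against 37.1% of all genes), 7 with RPL10A-STAMP higher (20% of all genes) and 13 with RPL22-STAMP higher (17.1% of all genes). Without scaling, 88.1% of the genes called were higher with RPL10A-STAMP, against 59.6% with it, as the median log2 fold change of all genes moved to 0.18. The chaperone median then was 0.081, below that of all genes, and 4 chaperone genes passed, with *Dnajc13*, *Hspa13* and *Dnajc1* higher with RPL10A-STAMP and *Dnajc30* higher with RPL22-STAMP. The balance of directions among the chaperone calls thus turned with the scaling.

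**Figure D3:**
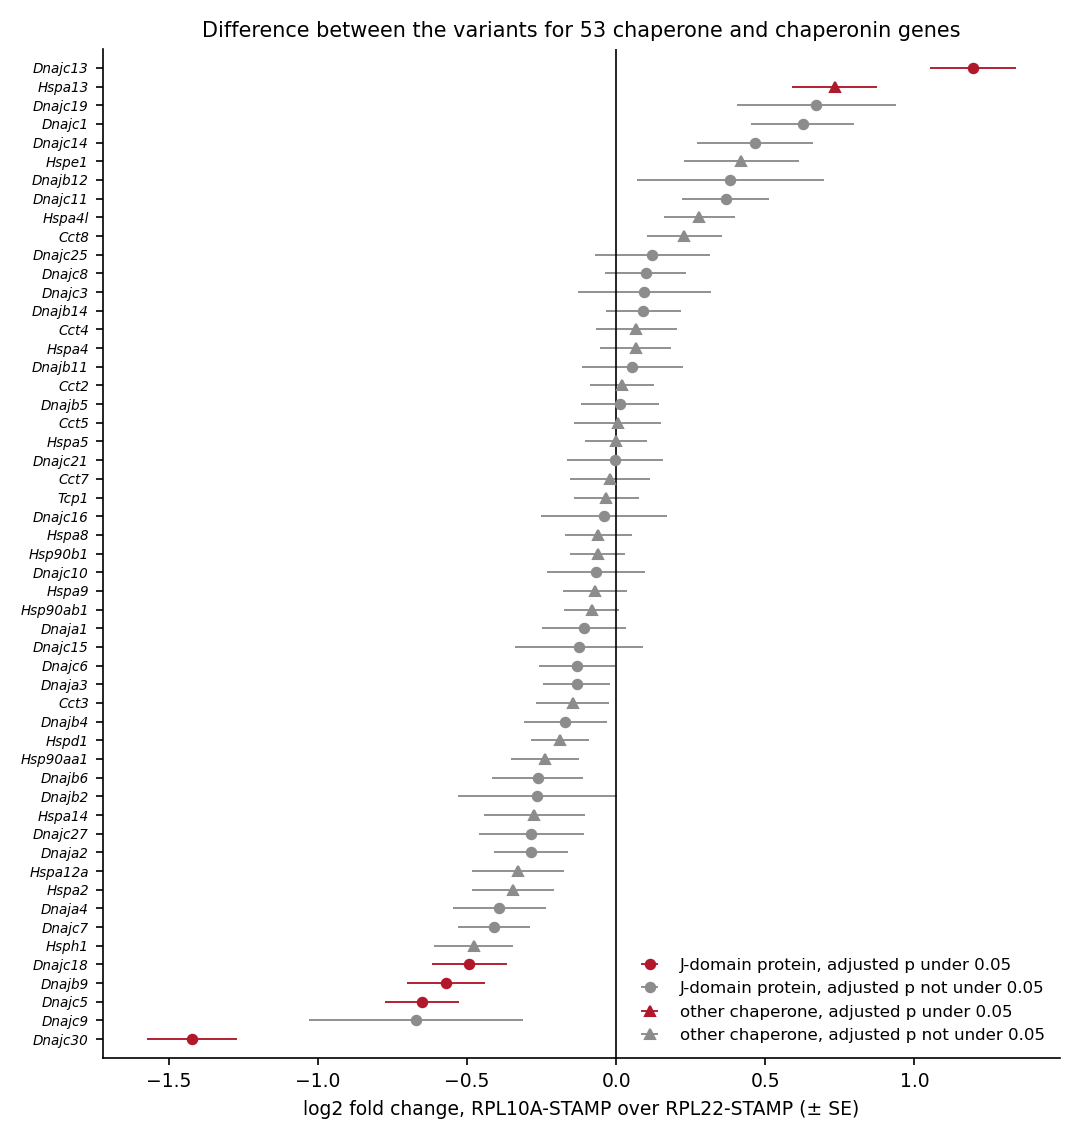
Log2 fold change (positive where RPL10A-STAMP is higher) on the log2(EPR + 0.01) scale, with its SE, for the 53 genes edited in all 6 libraries. Circles are J-domain genes and triangles the other chaperones, with the 6 genes past an adjusted p of 0.05 in red. *Dnajc13* (1.20) and *Dnajc30* (-1.42) stand at the ends.

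The 6 genes past the threshold, 5 of them J-domain genes, act in different places. *Dnajc13* and *Hspa13* were higher with RPL10A-STAMP. *Dnajc30*, *Dnajc5*, *Dnajb9* and *Dnajc18* were higher with RPL22-STAMP. All 6 were separated without overlap in relative EPR. In EPR as deposited 5 of them stayed separated, and *Dnajb9* overlapped.

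Because rAPOBEC1 edits cytosines, the first 30 coding bases are shown for 5 of these genes, with cytosines in capitals (GRCm38 with GENCODE release 21). The start of *Dnajc18* is not shown, and cytosine made up 23.4% of its transcript. The deposited ratio does not say which bases were edited.
Dnajc13: atgaaCataattagggaaaataaggatCtg
Hspa13: atggCCggagagatgaCgatCttaggttCa
Dnajc30: atggCggCCgCgCgCtgCCtggggtggaCC
Dnajc5: atggCCgaCCagaggCagCgCtCaCtCtCt
Dnajb9: atggCtaCtCCaCagtCagttttCgtCttt
These starts lie in a coding exon at chr9:104246798-104246827 on the minus strand for *Dnajc13*, chr5:135064251-135064280 on the plus strand for *Dnajc30*, chr2:181546382-181546411 on the plus strand for *Dnajc5* and chr12:44208274-44208303 on the minus strand for *Dnajb9*. That of *Hspa13* is split by an intron in the gene at chr16:75745431-75767104 on the minus strand. They hold 2 cytosines in *Dnajc13*, 5 in *Hspa13*, 10 in *Dnajc30*, 11 in *Dnajc5* and 8 in *Dnajb9*. Over the whole coding sequence, cytosine made up 21.1% in *Dnajc13*, 21.7% in *Hspa13*, 34.6% in *Dnajc30*, 27.4% in *Dnajc5* and 19.8% in *Dnajb9*. Over all 8039 genes with a transcript, the rank correlation of the log2 fold change with the cytosine share of the transcript was -0.44, and over the 53 chaperone genes it was -0.12, given as a description with no test.

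*Dnajc13* (ENSMUSG00000032560) encodes RME-8, a J-domain protein of early endosomes that acts in sorting and recycling. It had 2.99, 3.89 and 3.11 with RPL10A-STAMP against 0.935, 1.14 and 0.918 with RPL22-STAMP. With RPL10A-STAMP it was the most edited chaperone gene in each library, and with RPL22-STAMP it was near the median gene. The mean was 3.34-fold higher with RPL10A-STAMP, with a log2 fold change of 1.20 (SE 0.14, limma adjusted p = 0.00472), and EPR was 0.0485 ± 0.0119 against 0.0112 ± 0.00320 (SD, n = 3). It kept its call under all 18 alternatives.

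*Dnajc30* (ENSMUSG00000061118), which encodes a J-domain protein of the mitochondrial inner membrane, moved the other way and by more. It had 0.347, 0.363 and 0.638 with RPL10A-STAMP against 2.23, 2.75 and 2.62 with RPL22-STAMP. The mean was 5.64-fold higher with RPL22-STAMP (log2 fold change -1.42, SE 0.15, limma adjusted p = 0.00444). EPR was 0.00666 ± 0.00322 against 0.0284 ± 0.00772 (SD, n = 3). Runs of 50 bases shared with other loci cover 32.0% of its transcript, and its call held under all 18 alternatives.

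*Hspa13* (ENSMUSG00000032932) was the only member outside the J-domain genes to pass. It had 1.62, 1.95 and 1.998 with RPL10A-STAMP against 0.642, 0.795 and 0.966 with RPL22-STAMP, so it was above the median gene in each RPL10A-STAMP library and below it in each RPL22-STAMP library. The mean was 2.32-fold higher with RPL10A-STAMP (log2 fold change 0.73, SE 0.14, limma adjusted p = 0.0188). When the trend with GC content was removed, it fell to 0.35 on the log2 scale (limma adjusted p = 0.171). The call was also lost without RPL10A-STAMP replicate 2 (adjusted p = 0.0703) or replicate 3 (0.0747).

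*Dnajc5* (ENSMUSG00000000826) encodes cysteine string protein, which sits on synaptic vesicles and, with Hsc70, keeps the SNARE protein SNAP-25 folded. It had 1.178, 1.03 and 1.15 with RPL10A-STAMP against 2.37, 2.12 and 2.16 with RPL22-STAMP. Both groups were tight, and the mean was 1.98-fold higher with RPL22-STAMP (log2 fold change -0.65, SE 0.12, limma adjusted p = 0.0177). The call was lost without scaling (log2 fold change -0.39, adjusted p = 0.2004) and without RPL10A-STAMP replicate 2 (adjusted p = 0.0723) or replicate 3 (0.0673).

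*Dnajb9* (ENSMUSG00000014905) encodes ERdj4, a co-chaperone of BiP that is induced by the unfolded protein response. It had 1.31, 1.25 and 1.10 with RPL10A-STAMP against 1.97, 2.39 and 2.23 with RPL22-STAMP. The log2 fold change was -0.57 (SE 0.13, limma adjusted p = 0.0307), and without scaling -0.32 (adjusted p = 0.354). Leaving out any RPL10A-STAMP library raised the adjusted p above the threshold (0.0691, 0.0934 and 0.113 without replicates 1, 2 and 3), as did leaving out RPL22-STAMP replicate 2 (0.0787) or 3 (0.0790).

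*Dnajc18* (ENSMUSG00000024350), a J-domain protein anchored in the ER membrane, was the closest to the threshold of the genes that passed. It had 1.05, 0.863 and 0.829 with RPL10A-STAMP against 1.68, 1.56 and 1.59 with RPL22-STAMP. Its log2 fold change was -0.49 (SE 0.13, limma adjusted p = 0.0419). Without any 1 of the 6 libraries the adjusted p was between 0.0715 and 0.142, and without scaling it was 0.366. Just outside the threshold were *Dnajc1*, an ER J-domain gene (log2 fold change 0.62, limma adjusted p = 0.0547), *Hsph1*, and *Dnajc7*, a cytosolic co-chaperone shared by Hsp70 and Hsp90 (-0.41, limma adjusted p = 0.0656).

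**Figure D4:**
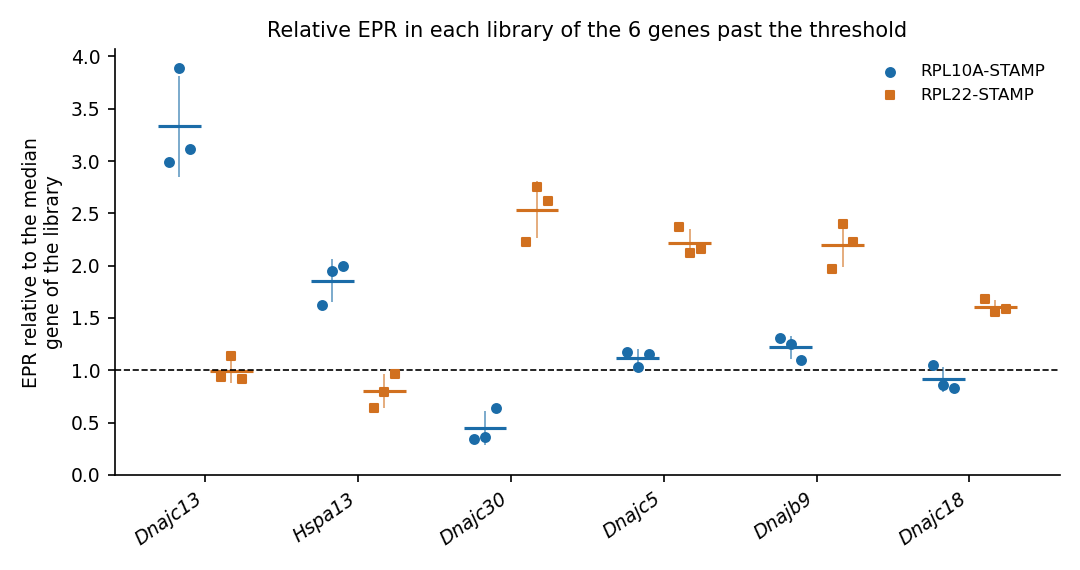
Relative EPR in each library of the 6 genes with an adjusted p below 0.05. Points are libraries (circles RPL10A-STAMP, squares RPL22-STAMP), short horizontal lines are means of 3, thin vertical lines 1 SD, and the dashed line at 1 is the median gene. The variants do not overlap for any of the 6 genes, with *Dnajc13* and *Hspa13* higher with RPL10A-STAMP and the other 4 higher with RPL22-STAMP.

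Grouped by place of action, the changes did not run one way, and the counts below stand beside the 14.3% of all genes that passed (8.51% with RPL10A-STAMP higher and 5.77% with RPL22-STAMP higher). Of 13 ER chaperone genes, all tested, *Hspa13* was higher with RPL10A-STAMP and *Dnajb9* and *Dnajc18* with RPL22-STAMP, while *Hspa5* had a log2 fold change of -0.000244 (SE 0.10). *Dnajc14*, which assists receptor transport out of the ER, had 2.21, 1.66 and 2.31 against 0.885, 1.21 and 1.78, which overlapped (limma adjusted p = 0.155). Of 8 mitochondrial chaperone genes, *Dnajc30* alone passed. *Dnajc19*, a part of the motor that pulls proteins into mitochondria, had the largest positive value of this list, with 1.71, 0.940 and 0.693 against 0.234, 0.826 and 0.164, which overlapped (log2 fold change 0.67, SE 0.27, limma adjusted p = 0.139). *Dnajc11*, linked to the organization of the inner membrane, had 0.704, 0.947 and 1.16 against 0.433, 0.605 and 0.585 without overlap (log2 fold change 0.37, SE 0.15, limma adjusted p = 0.138). The median log2 fold change was 0.05 for the ER list and -0.10 for the mitochondrial list.

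Of the 4 synaptic and endosomal J-domain genes, *Dnajc13* rose with RPL10A-STAMP and *Dnajc5* with RPL22-STAMP. *Dnajc6*, which encodes auxilin, the neuronal protein that recruits Hsc70 to clathrin coats, had 1.14, 1.09 and 1.17 with RPL10A-STAMP against 1.51, 1.16 and 1.29 with RPL22-STAMP. It overlapped between the variants and did not pass (log2 fold change -0.13, SE 0.13, limma adjusted p = 0.530). *Dnajb2*, a neuronal co-chaperone that directs clients to the proteasome, ranged from 0.182 to 1.26 over the 6 libraries.

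Co-chaperones and regulators outside the naming rule were listed separately. Of 51, 42 were tested and 5 passed, 3 with RPL10A-STAMP higher and 2 with RPL22-STAMP higher, beside the 14.3% of all genes. *Hsbp1*, which binds heat shock factor 1, had 4.70, 4.30 and 4.29 with RPL10A-STAMP against 10.05, 10.3 and 12.6 with RPL22-STAMP (log2 fold change -1.17, SE 0.15, limma adjusted p = 0.00523). It was above every chaperone gene in each library, and its call was lost without scaling (log2 fold change -0.82, limma adjusted p = 0.0633).

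Regulators of Hsp70 and Hsp90 were among the genes that passed. *Ahsa2*, related to the Hsp90 ATPase activator Aha1, had a mean of 0.716 ± 0.0802 with RPL10A-STAMP and 1.83 ± 0.0596 with RPL22-STAMP (SD, n = 3), with a limma adjusted p of 0.00881, and 0.0924 without scaling. *Ahsa1* itself was at 0.297 and 0.386 and did not pass (limma adjusted p = 0.506). *Bag4*, a nucleotide exchange factor of Hsp70, was at 3.64 ± 0.331 against 1.48 ± 0.757 (SD, n = 3; limma adjusted p = 0.0398). *Chordc1*, an Hsp90 co-chaperone, was at 1.82 ± 0.198 against 0.914 ± 0.0592 (SD, n = 3; limma adjusted p = 0.0238). The calls of *Bag4* and *Chordc1* were lost when any 1 library was left out, with the exception of RPL22-STAMP replicate 3 for *Bag4*. Removal of the GC trend took *Chordc1* to a log2 fold change of 0.081 (limma adjusted p = 0.705) and *Bag4* to 0.80 (0.102).

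Relative EPR of the chaperone genes went with the part of the transcript outside the coding sequence. Over the 53 genes, Spearman's rank correlation between mean relative EPR and non-coding length (untranslated bases and the stop codon, in the transcript with the longest coding sequence) was 0.64, against 0.20 over 8039 genes. The coefficient was between 0.46 and 0.68 in the 6 libraries. The transcript used for *Dnajc13* holds only its coding sequence and stop codon, and over the 52 other genes the coefficient was 0.74. Within the 31 J-domain genes, *Dnajc13* among them, it was 0.31, and within the 22 others 0.57. It was not computed for the J-domain genes without *Dnajc13*, so 0.31 and 0.57 cannot be compared directly. The median non-coding length of these groups was 1907 and 764 bases. Over the 53 genes the coefficient with coding length was -0.20, and with GC content -0.18. The genes share libraries and reads, are not independent replicates, and these values are descriptions with no test.

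**Figure D5:**
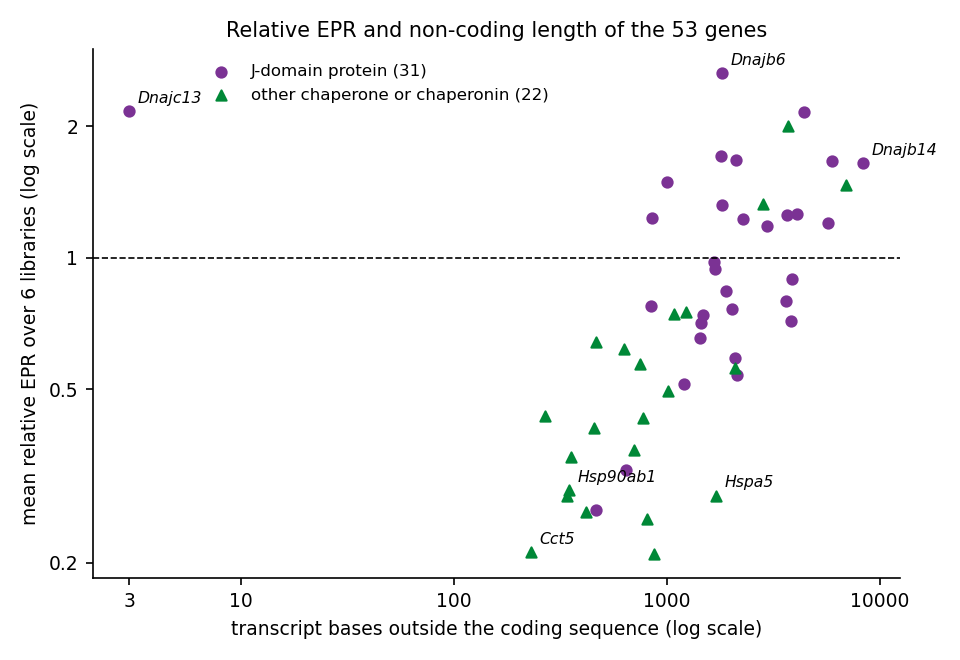
Mean relative EPR over the 6 libraries against the number of transcript bases outside the coding sequence, both on log scales, for the 53 genes edited in all 6 libraries. Circles are J-domain genes (31), triangles the others (22), and the dashed line is the median gene. Genes with long non-coding sequence such as *Dnajb14* (8340 bases, 1.65) lie high and those with short ones such as *Cct5* (230 bases, 0.212) low, while *Dnajc13*, at 3 bases, stands apart on the left.

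*Hspa5* and *Dnajb14* are both ER chaperone genes, and *Dnajb14* went with this relation. *Hspa5* was low for its length, with 1707 non-coding bases (median of the 53 genes 1474) and a relative EPR of 0.285. The difference between the variants was tied to length much less (rank correlation with non-coding length 0.012 over the 53 genes). With GC content, the log2 fold change had a rank correlation of -0.20 over the chaperone genes and -0.47 over all genes. After removal of the GC trend, 7 of the 53 chaperone genes passed, beside 663 of all 8039 genes. Among the 7 were the cytosolic *Dnaja2* and *Dnajb4*, which had not passed before, while *Hspa13* no longer did.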

How the data were processed

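EPR was measured in 6 bulk poly(A) RNA-seq libraries, 3 per variant. Single-end reads had been trimmed by the authors (cutadapt) and mapped with STAR, which kept reads with up to 10 locations in mm10. SAILOR gave the C-to-U edits and featureCounts the reads of each gene. They deposited the ratio of edits to reads per gene for 31053 genes, without normalizing libraries to each other. The gene annotation they used is not given in the sources used here. Edit and read counts cannot be had from a ratio, so the depth behind each value is unknown and no counting interval or detection limit could be given.

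GENCODE mouse release 21 (GRCm38) held 31011 of the identifiers and gave names and transcripts. The members and lists were chosen with earlier results of these data known. For scaling, EPR was taken relative to the library median over the 8046 genes with edits in all 6 libraries and put back on the EPR scale with the geometric mean of these medians. limma 3.58.1 (R 4.3.3) was run on log2(scaled EPR + 0.01) with a variance trend, and p values were adjusted over all 8046 genes by the Benjamini-Hochberg method (threshold 0.05). Fold changes on this scale understate those of genes with low EPR. The fit was tested on simulated data. Genes edited in fewer libraries were not tested in this main fit, only in the alternatives with a wider filter.

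Length and GC content came from the transcript of each gene with the longest coding sequence. Copies elsewhere were exact runs of 50 bases in GRCm38. The genes named were the members past the threshold, the TRiC/CCT subunits, a set of well-known chaperones, the 5 highest and 5 lowest by mean EPR, and called co-chaperones, of which 1 is not reported here; values had been seen before any other name was chosen. The alternatives changed the pseudocount, scaling, filter, GC and length trends, replicate block, variance trend and each library left out. Tables and figures were made with matplotlib 3.10.9, scipy 1.17.1, pandas 2.3.3 and numpy 2.4.6 in Python 3.11.15.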

Additional observations from a re-analysis of the deposited data

How the results depend on the processing

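The depth behind each ratio is unknown, and each variant had 3 libraries. *Dnajc13* and *Dnajc30* passed under all 18 alternatives, and none of the 6 genes that passed changed direction under any of them.

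The number of all genes called was 1149 of 8046. It was 754 of 10909 with genes edited in at least 3 libraries, 569 of 12811 without a filter and 663 of 8039 after removal of the GC trend. With single libraries left out it was 369 to 873 of 8046. The number of chaperone genes called, 6 of 53, was 5 of 60 with genes edited in at least 3 libraries, *Hspb11* among them. Without a filter 3 of 67 chaperone genes were called, and with 1 library left out from 2 to 5 of 53. Their median log2 fold change of -0.063 was -0.14 with a pseudocount of 0.001 and 0.081 without scaling, and that of the TRiC/CCT subunits was 0.11 with the length trend removed. A replicate block gave 603 genes and 3 chaperone genes (*Dnajc13*, *Dnajc30* and *Hspa13*) past the threshold, and the block with the GC trend removed gave 227 and 2. Deviations of libraries with the same number correlated at 0.044, 0.046 and -0.0055. Those of replicate 1 of one variant with replicate 2 of the other correlated at -0.049 and -0.047. Whether libraries with the same number share a culture or batch cannot be told from these values.

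Signs turned only among named genes that had not passed. Without scaling the log2 fold change was 0.071 for *Cct7*, 0.17 for *Dnaja1*, 0.035 for *Dnajb6*, 0.060 for *Dnajc21*, 0.11 for *Dnajc6*, 0.025 for *Hsp90ab1*, 0.037 for *Hsp90b1*, 0.097 for *Hspa5*, 0.071 for *Hspa8*, 0.081 for *Hspa9* and 0.092 for *Tcp1*. After quantile normalization it was 0.0053 for *Cct7*, 0.018 for *Dnajc21* and 0.028 for *Hspa5*, and with a pseudocount of 0.1 it was 0.0015 for *Dnajc21* and 0.00011 for *Hspa5*. With the GC trend removed, with or without the block, it was -0.052 for *Cct2*, -0.10 for *Cct4*, 0.20 for *Cct7*, -0.018 for *Cct8*, 0.021 for *Hsp90ab1*, -0.035 for *Hspa4* and 0.052 for *Hspa8*. With the length trend removed it was 0.037 for *Cct7*, 0.081 for *Dnajc21*, 0.0019 for *Hspa8* and 0.025 for *Tcp1*. With 1 library left out it ranged from -0.042 to 0.072 for *Cct2*, from -0.036 to 0.18 for *Cct4*, from -0.10 to 0.11 for *Cct5*, from -0.12 to 0.093 for *Cct7*, from -0.18 to 0.082 for *Dnajc21*, from -0.047 to 0.050 for *Hspa5* and from -0.092 to 0.00048 for *Tcp1*. The median over the TRiC/CCT subunits then ranged from -0.036 to 0.072. The cause was not tested.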

Other observations

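Prefoldin hands newly made actin and tubulin chains to TRiC/CCT. Of its 6 subunit genes, 5 were edited in all 6 libraries and none passed limma between the variants (lowest adjusted p = 0.155), beside 14.3% of all genes. *Pfdn2* and *Vbp1* had a mean relative EPR above the median gene with both variants, at 2.21 and 1.73 for *Pfdn2* and at 2.75 and 2.10 for *Vbp1* (RPL10A-STAMP and RPL22-STAMP). *Pfdn1*, *Pfdn4* and *Pfdn6* were below it with both, from 0.224 to 0.609.

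Replicate spread was smaller among the chaperone genes than among all genes. The median coefficient of variation of relative EPR over 3 libraries for the 53 genes was 18.2% with RPL10A-STAMP and 18.6% for RPL22-STAMP, against 23.8% and 28.2% for the 8046 genes. *Hspa4l* (4.67% and 4.01%) and *Hsp90aa1* (3.31% and 5.99%) were among the steadiest, and *Dnajb2* (71.0% and 66.6%) and *Cct5* (61.6% and 65.3%) among the most variable. These are values with no test.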
